A study of Arabidopsis thaliana with 12 samples.

Results

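Silencing of SNF4 in dark-grown Arabidopsis thaliana seedlings was examined by comparing 3 arrays of amiR-SNF4 seedlings with 3 arrays of wild type. These 6 arrays were chosen by their titles out of the 12 of the series, and the comparison ran over the 13356 genes named by a probe set of their own. Wild type was the accession Col-0. The silenced line carried, in the same background, an artificial microRNA against SNF4 that is switched on by β-estradiol. Both genotypes grew on medium with 5 µM β-estradiol and 0.5% sucrose at 22 °C, so the inducer was shared by the controls. Whole seedlings were collected 5 days after germination, which the labels place 4 h into the light period. The labels give a growth regime of 8 h light and 16 h dark for every sample, the dark-grown ones included. The other 6 arrays, of the same genotypes grown in light, entered the normalization and the test of the difference between darkness and light.

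SnRK1 is a protein kinase, related to yeast SNF1 and mammalian AMPK, that is active when sugar or energy runs short. It is a complex of a catalytic alpha subunit with regulatory beta and gamma-type subunits, and SNF4 is the gamma-type subunit that activates it. Active SnRK1 is known to switch on catabolic genes such as those of amino acid breakdown and autophagy, and to switch off genes of biosynthesis and growth. A seedling in darkness is etiolated: it lives on seed reserves and supplied sugar, lengthens its hypocotyl by cell expansion and holds plastids that have not yet greened.

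What limits these groups as a model was the lack of amiR-SNF4 seedlings without the inducer and of a second silenced line. Loss of SNF4 and other properties of the line therefore cannot be told apart. The level of SNF4 was not analysed here, as the named probe sets did not include it, so the silencing itself was not checked. The RNA came from whole seedlings, in which fewer cells of a type and less RNA per cell cannot be told apart. The titles call the arrays biological replicates but do not name separate cultures. A p-value therefore measures how far these samples spread, which may be technical.

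Median intensities of the 6 arrays as deposited were 60.6, 62.5 and 39.4 in wild type and 50.02, 61.4 and 56.5 in amiR-SNF4. All levels below are log2(intensity + 16) after quantile normalization, and all effects are amiR-SNF4 minus wild type on that scale, each with its standard error and 3 arrays per genotype. The added 16 sets a floor near 4, so effects of dim genes are understated. The first principal component held 72.7% of the variance and separated the genotypes, and the second held 11.8%, with wild-type replicate 3 and amiR-SNF4 replicate 1 at its low end. The ratio of the 3′ to the 5′ actin control probe set, a sign of RNA integrity, was 2.26 to 3.26 in wild type and 2.15 to 2.67 in amiR-SNF4; its part in the results was not tested.

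Silencing went with a broad shift in the dark-grown seedling. Of the 13356 genes, 2961 (22.2%) were called at a limma adjusted p under 0.05 (Benjamini-Hochberg over all genes), 1421 higher (10.6%) and 1540 lower (11.5%). On this scale rises reached further than falls. At least 4-fold changes numbered 321 upward and 147 downward, and at least 8-fold changes 111 and 25. The floor near 4 bounds falls but not rises, and the median level of all genes was 6.08. These counts therefore cannot say whether silencing raised genes more strongly than it lowered them. The median effect of the genes called higher was 1.21 and of those called lower -1.04, against -0.03 over all genes and a median standard error of 0.205. The 3 arrays of one genotype did not overlap those of the other in 4947 genes (37.0%), among them 2960 of the 2961 called. The exception was ATPC1 (-1.03), a gamma subunit of the chloroplast ATP synthase, chosen for mention after its values were seen. Its call was lost when wild-type replicate 2, wild-type replicate 3, amiR-SNF4 replicate 1 or amiR-SNF4 replicate 3 was left out.

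The balance of rises and falls depended on how the arrays were scaled. With quantile normalization 52.0% of the calls were falls. Without normalization between arrays 1684 genes were called, 1052 higher and 632 lower, so that 37.5% were falls. Scaling to the spiked hybridization controls gave 1641 calls, 994 higher and 647 lower, or 39.4% falls. The median over all genes moved by less than 0.1 between these scalings.

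**Figure D1:**
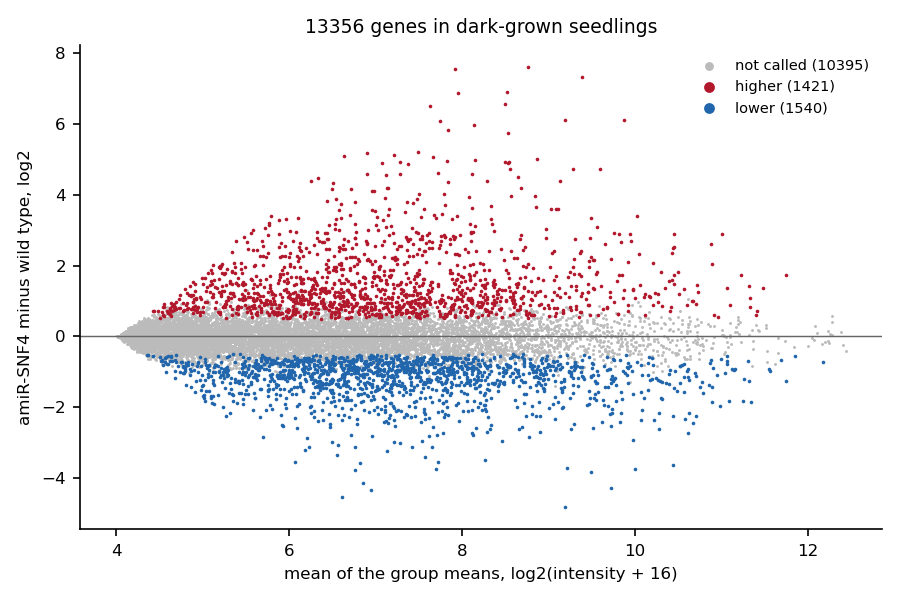
Effect of silencing for 13356 genes in dark-grown seedlings. The horizontal axis is the mean of the genotype means and the vertical axis amiR-SNF4 minus wild type, both on the log2(intensity + 16) scale; 1421 genes called higher are red, 1540 called lower blue and the others grey. The red points reach further from 0 than the blue ones.

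The 12 largest rises were taken among called genes without overlap by genotype and above the 25th percentile of levels in both genotypes. They ran from 32.4-fold to 192-fold, from wild-type means of 4.88 to 6.82 to amiR-SNF4 means of 10.09 to 13.04 (median level of all genes 6.08). AT5G38910 had levels of 5.21, 5.30 and 4.39 in wild type and 12.63, 12.22 and 12.80 in amiR-SNF4. It rose by 7.58 ± 0.28, 192-fold (adjusted p = 4.70e-06), and every amiR-SNF4 array lay far above every wild-type array. The neighbouring loci AT2G30660 and AT2G30670 both stood among these 12, with rises of 5.82 ± 0.30 and 6.89 ± 0.20. AT1G43910 was the most even of them in wild type, with levels of 6.16, 6.15 and 6.13 in wild type and 12.49, 12.26 and 11.97 in amiR-SNF4, and rose 68.1-fold. The 12th was cwINV6, of the cell wall invertase family, whose enzymes split sugars in the wall. Its levels were 6.37, 6.42 and 6.28 in wild type and 11.97, 10.79 and 11.37 in amiR-SNF4, and it rose by 5.02 ± 0.28 (adjusted p = 2.78e-05). The other 7 were AT1G21520, AT5G17760, AT4G36430, AT2G38240, AT3G47540, AT2G04050 and AT4G33720, which rose between 33.1-fold and 159-fold. The gene table used here gave no symbol for them, so no role is given.

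**Figure D2:**
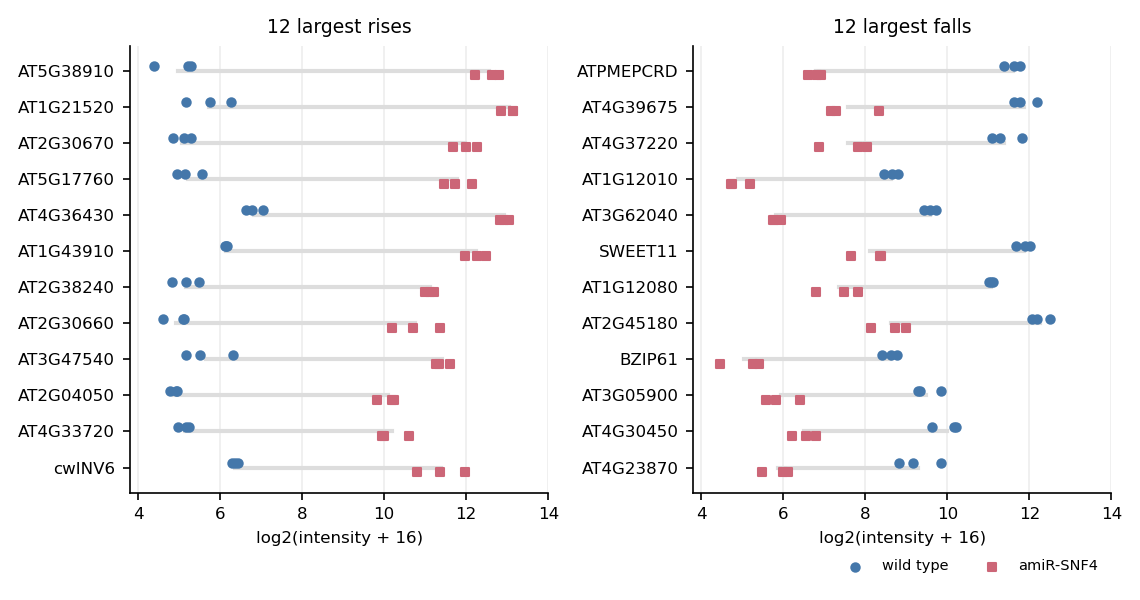
Levels in each array, as log2(intensity + 16), for the 12 largest rises (left) and the 12 largest falls (right) among called genes measured in both genotypes. Blue circles are the 3 wild-type arrays, red squares the 3 amiR-SNF4 arrays, and grey bars join the genotype means. The 24 genes were picked only among those whose 2 sets of arrays did not overlap.

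The largest falls were picked by the same rule as the largest rises, and were mostly of genes that were bright in wild type. That brightness follows from the choice and is not a finding. A gene had to stay above a level of 4.87 in amiR-SNF4, so a deep fall needed a high level in wild type. Falls to the floor, such as that of OCT1 below, were left out by this rule. ATPMEPCRD, a pectin methylesterase, an enzyme that trims methyl groups from wall pectin, had levels of 11.78, 11.39 and 11.62 in wild type and 6.61, 6.92 and 6.83 in amiR-SNF4. It fell by 4.81 ± 0.17, 28.1-fold (adjusted p = 4.70e-06), with the arrays of the genotypes more than 4 apart on the log2 scale. SWEET11, a sucrose exporter of the plasma membrane that loads the phloem, had levels of 12.01, 11.68 and 11.90 in wild type and 7.64, 8.38 and 8.36 in amiR-SNF4 and fell by 3.74 ± 0.23. BZIP61, a basic leucine zipper transcription factor, had levels of 8.40, 8.63 and 8.78 in wild type and 5.41, 5.27 and 4.46 in amiR-SNF4 and fell by 3.56 ± 0.26. The other 9 falls, in AT4G39675, AT4G37220, AT1G12010, AT3G62040, AT1G12080, AT2G45180, AT3G05900, AT4G30450 and AT4G23870, lay between 10.6-fold and 19.4-fold. AT1G12080 was the tightest of them in wild type, with levels of 11.13, 11.06 and 11.03 in wild type and 6.79, 7.48 and 7.82 in amiR-SNF4. OCT1, an organic cation and carnitine transporter, fell further than SWEET11 but to the floor. Its levels were 8.81, 8.70 and 9.10 in wild type and 4.44, 4.31 and 4.31 in amiR-SNF4, so its effect of -4.52 is understated. OCT1 was named as the member of the transporter list with the smallest p.

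Of the SnRK1 complex itself, AKINBETA1, the beta1 subunit, was the only gene measured under such a name. Its levels were 10.90, 11.01 and 11.02 in wild type and 8.90, 9.62 and 9.15 in amiR-SNF4, and every amiR-SNF4 array lay more than 1 below the wild-type arrays. It fell by 1.75 ± 0.21, 3.36-fold (adjusted p = 0.000685).

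Most tubulins fell, and some cell division genes did. Percentages beside the counts of a family are shares of its measured members, to be read against the 10.6% of all genes that rose and the 11.5% that fell. Of 7 measured tubulins, the proteins that build microtubules, 5 fell and none rose (71.4%), with a median effect of -1.24. The beta-tubulin TUB5 had levels of 10.30, 10.06 and 10.39 in wild type and 7.44, 7.66 and 7.56 in amiR-SNF4, with more than 2 on the log2 scale between the genotypes. It fell by 2.70 ± 0.16, 6.49-fold (adjusted p = 3.60e-05). TUB1 had levels of 8.29, 8.05 and 8.09 in wild type and 6.07, 6.0 and 6.17 in amiR-SNF4 and fell 4.2-fold. TUB6 had levels of 9.88, 9.85 and 10.30 in wild type and 7.80, 8.29 and 7.92 in amiR-SNF4 and fell 4.01-fold. The calls also took in TUB7 (-1.24, lost without wild-type replicate 3 and amiR-SNF4 replicate 1) and TUA6 (-0.89), while TUB9 (-0.46) and TUA1 (-0.03) were not called. In the array medians of the tubulin list, wild type read 9.88, 9.85 and 10.2 and amiR-SNF4 7.80, 8.29 and 7.92.

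Of 17 mitosis and cell cycle genes, 6 fell and none rose (35.3%, median -0.43). ATMAP65-6, which bundles microtubules, had levels of 8.96, 8.56 and 9.29 in wild type and 6.75, 6.38 and 6.05 in amiR-SNF4. It fell by 2.54 ± 0.25 (adjusted p = 0.000279), and its lowest wild-type array stood well above its highest amiR-SNF4 array. SIM, an inhibitor of cyclin-dependent kinases that favours endoreduplication, had an effect of -1.54, and FBL17, an F-box protein of cell cycle entry, of -1.12. The spindle checkpoint genes BUB3.1 (0.25) and BUBR1 (-0.28) were not called. This count dropped to 2 without normalization, to 1 with control scaling, to 3 without wild-type replicate 2 and to 2 without wild-type replicate 3 and amiR-SNF4 replicate 1. Among 8 histones HIS1-3, a linker histone known to respond to drought, had levels of 9.56, 9.49 and 8.93 in wild type and 7.13, 7.02 and 7.55 in amiR-SNF4 and fell 4.26-fold. HON4 (-1.04) and HTB2 (-0.76) were also called lower, 3 of 8 in all (37.5%). HON4 and HTB2 both lost the call without wild-type replicate 2, wild-type replicate 3 or amiR-SNF4 replicate 3, and without wild-type replicate 3 and amiR-SNF4 replicate 1 together, HON4 also without amiR-SNF4 replicate 2, and HTB2 also without wild-type replicate 1 or amiR-SNF4 replicate 1.

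Proteins that tie calcium or the division plane to the cytoskeleton moved in both directions. Of 15 IQ-domain proteins, calmodulin-binding scaffolds on microtubules and membranes, 4 fell and 2 rose (26.7% and 13.3%, median -0.28). IQD28 fell by 1.49 ± 0.21 and IQD19 by 1.25 ± 0.16, while IQD23 rose by 1.29 ± 0.16. Without normalization or with control scaling 2 of the falls were called, and without wild-type replicate 3 and amiR-SNF4 replicate 1 only 1 of the rises. Of 14 proteins of the TON1-recruiting motif family, which help to set the preprophase band, 3 fell and 1 rose (21.4% and 7.14%). TRM26 had levels of 7.71, 7.64 and 7.83 in wild type and 6.40, 6.15 and 6.38 in amiR-SNF4 and fell by 1.42 ± 0.15, and TRM15 rose by 0.89 ± 0.15.

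Genes that loosen and build the cell wall moved in both directions, with most members not called. Over 7 lists of 89 such genes, 25 fell (28.1%) and 6 rose (6.74%). Without normalization or with control scaling, fewer falls were called in each of these lists except the SKU5 family. Of 6 pectin enzymes, 2 fell and 1 rose (33.3% and 16.7%), and under either of these scalings 1 fall and no rise was left. Of 18 expansins, which loosen the wall during growth, 6 fell and 2 rose (33.3% and 11.1%, median -0.39). EXPA8 had levels of 9.23, 9.09 and 8.73 in wild type and 5.89, 6.40 and 6.38 in amiR-SNF4. It fell by 2.80 ± 0.21, 6.94-fold (adjusted p = 8.23e-05), the deepest fall of the family. The expansin-like gene EXLA2 fell 3.79-fold. In the opposite direction EXPA4 had levels of 9.72, 9.55 and 9.73 in wild type and 11.32, 10.88 and 10.88 in amiR-SNF4 and rose 2.57-fold, and EXPA9 had levels of 8.35, 8.13 and 8.34 in wild type and 9.39, 9.34 and 9.25 in amiR-SNF4 and rose 2.07-fold. Every one of these 4 genes had its arrays apart by genotype. Without normalization 2 of the falls were called and with control scaling 3.

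Of 10 xyloglucan endotransglucosylases, which cut and rejoin xyloglucan chains, 4 fell and 2 rose (40% and 20%, median -0.42). XTH19 had levels of 9.23, 8.62 and 8.40 in wild type and 7.06, 7.25 and 7.34 in amiR-SNF4 and fell by 1.53 ± 0.23. XTH32, with levels of 6.63, 6.55 and 6.21 in wild type and 7.68, 8.18 and 7.96 in amiR-SNF4, rose by 1.48 ± 0.20, and XTH29 rose by 1.02 ± 0.19 from near the floor. Without normalization or with control scaling 1 of the 4 falls was called. Of 15 family 9 glycosyl hydrolases, mostly endoglucanases, 3 fell and none rose (20%). GH9B7 had levels of 9.63, 9.55 and 9.73 in wild type and 8.02, 8.26 and 8.01 in amiR-SNF4 and fell 2.92-fold, and GH9B8 fell 2.31-fold.

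Of 22 trichome birefringence-like proteins, a family that adds acetyl groups to wall polysaccharides, 7 fell and none rose (31.8%, median -0.14). TBL25 was even within each genotype, with levels of 8.95, 8.82 and 8.90 in wild type and 6.99, 7.06 and 7.02 in amiR-SNF4, and fell 3.65-fold. TBL45 fell by 1.82 ± 0.16 and TBL37 by 1.65 ± 0.20. Without normalization or with control scaling 4 of these falls were called, and leaving out wild-type replicate 1 or wild-type replicate 3 added 1 rise. SKU5, a membrane-anchored glycoprotein of directed root growth, had levels of 10.69, 10.51 and 10.87 in wild type and 9.35, 8.85 and 8.42 in amiR-SNF4 and fell 3.52-fold, whereas its relatives sks15, sks16 and sks18 lay between -0.28 and -0.05 and were not called. Of 14 cellulose synthase-like and xylan enzymes, 2 fell and 1 rose (14.3% and 7.14%, median -0.35), and 11 had effects below 0. The one that rose was CSLD2, a cellulose synthase-like enzyme of root hairs, by 1.29 ± 0.23. Neither fall was called without normalization, with control scaling or without wild-type replicate 2, amiR-SNF4 replicate 2 or amiR-SNF4 replicate 3.

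RALF peptides and the receptor kinases of their family report on growth and on the state of the wall. Of 15 measured, 4 fell and none rose (26.7%, median -0.31). THE1, a receptor kinase that senses damage to the wall, had levels of 8.47, 8.20 and 8.47 in wild type and 6.83, 6.57 and 6.51 in amiR-SNF4. It fell by 1.74 ± 0.17, 3.35-fold (adjusted p = 0.000249), and its arrays were more than 1 apart by genotype. FER, the receptor of several RALF peptides, had an effect of -1.09 and lost its call without amiR-SNF4 replicate 2 or amiR-SNF4 replicate 3. Of the peptides, RALFL22 (-1.61) and RALFL27 (-1.25) fell, the first of them not without normalization or with control scaling, while RALFL32 (-1.40) was not called. The receptors ANX1 (-0.22) and ANX2 (0.31), known from pollen tubes, were not called either.

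**Figure D3:**
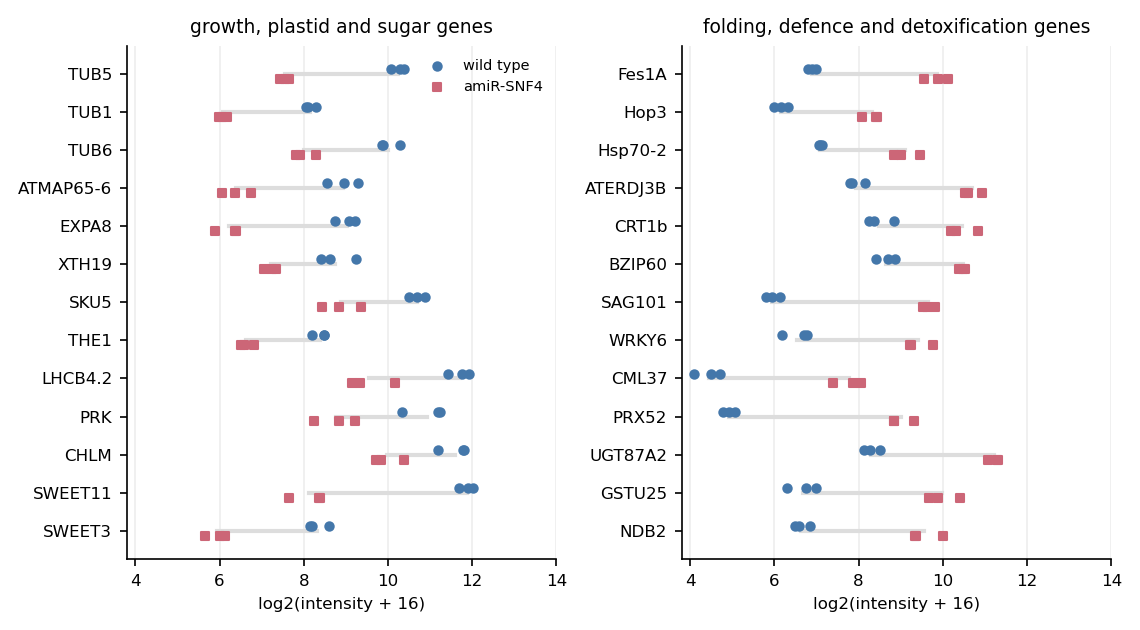
Levels in each array, as log2(intensity + 16), for 13 genes of growth, plastids and sugar transport (left) and 13 of folding, defence and detoxification (right). Blue circles are the 3 wild-type arrays, red squares the 3 amiR-SNF4 arrays, and grey bars join the genotype means. The genes were picked as called falls (left) and called rises (right), so their direction and lack of overlap follow from the choice. Members of the same families that moved the other way, such as EXPA4, XTH32, GSTU26 and PRXR1, are not shown.

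Hormone genes moved in both directions. Of 17 measured auxin genes, 3 rose and 3 fell (17.6% and 17.6%, median -0.14). GH3.3, which joins auxin to amino acids and so inactivates it, had levels of 7.86, 7.34 and 7.20 in wild type and 10.46, 9.37 and 10.15 in amiR-SNF4. It rose by 2.53 ± 0.30, 5.77-fold (adjusted p = 0.000766), and its amiR-SNF4 arrays all lay above the wild-type ones but were more scattered. YUC4, an enzyme of auxin synthesis, rose by 1.26 ± 0.21, while IAA29, a repressor of auxin response, had levels of 7.13, 7.72 and 7.21 in wild type and 5.25, 5.99 and 5.74 in amiR-SNF4 and fell by 1.70 ± 0.25. Without wild-type replicate 2 only 1 of the 3 falls was called.

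The gibberellin receptors went opposite ways. GID1A had levels of 7.83, 8.05 and 8.39 in wild type and 6.81, 6.70 and 6.69 in amiR-SNF4 and fell by 1.36 ± 0.18. GID1B had levels of 7.0, 7.16 and 7.27 in wild type and 9.25, 8.56 and 8.70 in amiR-SNF4 and rose by 1.69 ± 0.21. No array of one genotype fell within the range of the other for either gene, and the other 4 genes of gibberellin reception were not called. UGT76C2, which glucosylates cytokinins and so inactivates them, had levels of 8.74, 9.37 and 9.58 in wild type and 7.16, 7.58 and 7.15 in amiR-SNF4 and fell 3.82-fold.

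Some nuclear genes of the photosynthetic machinery fell. All 17 measured nuclear photosystem genes had effects below 0 (median -0.62), and 5 of them were called lower (29.4%). LHCB4.2, a light-harvesting protein of photosystem II, had levels of 11.42, 11.92 and 11.76 in wild type and 9.15, 10.16 and 9.34 in amiR-SNF4. It fell 4.44-fold (adjusted p = 0.00113), with amiR-SNF4 replicate 2 the closest to wild type. LPA19 (-1.61) and PSB27 (-1.24), both known for photosystem II assembly and repair, were called as well, with PSAN (-1.20), a subunit of photosystem I. The fifth was LIL3:2 (-0.96), a light-harvesting-like protein.

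The count of photosystem falls was not stable. It was 1 without normalization and with control scaling, 9 without amiR-SNF4 replicate 2, 9 without dim genes, 3 without wild-type replicate 3 and amiR-SNF4 replicate 1, and 12 with the spread shared over all 12 arrays. LIL3:2 was also lost without wild-type replicate 2. LHCB4.2 kept its call under every alternative run. As a description, 13 of the 17 genes were higher in light-grown than in dark-grown wild type, with a median difference of 0.72. The share of all genes higher in light was not computed, so this count is no check of the growth condition.

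Of 6 genes of the Calvin cycle and thylakoid ATP supply, 4 fell and 1 rose (66.7% and 16.7%, median -0.98). PRK, phosphoribulokinase of the Calvin cycle, had levels of 10.33, 11.20 and 11.23 in wild type and 8.83, 9.21 and 8.25 in amiR-SNF4. It fell by 2.15 ± 0.32, 4.45-fold (adjusted p = 0.00220), and wild-type replicate 1 was the lowest of its group but still above every amiR-SNF4 array. SBPASE, a phosphatase of the same cycle, had an effect of -1.32. TAAC, which carries ATP and ADP across the thylakoid membrane, was the one that rose, by 0.82 ± 0.14, with levels of 6.71, 6.60 and 6.80 in wild type and 7.51, 7.53 and 7.53 in amiR-SNF4. Without wild-type replicate 2 the falls numbered 2, with SBPASE among those lost, as they did without normalization and without wild-type replicate 3 and amiR-SNF4 replicate 1, and with control scaling 1.

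The 3 measured subunits of the chloroplast NDH complex, NdhS (-1.52), NdhL (-1.43) and NdhN (-0.90), all fell. None of them was called without normalization or with control scaling, and NdhN was also lost when any array but amiR-SNF4 replicate 2 was left out. In tetrapyrrole synthesis CHLM, a methyltransferase of the chlorophyll branch, had levels of 11.18, 11.77 and 11.81 in wild type and 9.72, 10.38 and 9.84 in amiR-SNF4 and fell 3.04-fold. Another member, hemf2 (-1.39), was called lower and the other 10 were not. The count of 2 (16.7%) became 4 without wild-type replicate 1 and 1 without either wild-type replicate 2 or wild-type replicate 3, without normalization and with control scaling. SAPX, an ascorbate peroxidase of the chloroplast stroma, went the other way, with levels of 7.69, 7.59 and 7.75 in wild type and 8.91, 9.45 and 8.83 in amiR-SNF4 and a rise of 1.38 ± 0.20.

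Plastid-encoded genes showed no call in 69 members, with a median of -0.09 and effects between -0.72 and 0.44. The smallest p was that of psbE (-0.63, adjusted p = 0.0758). With dim genes left out of the test psbE was called lower (adjusted p = 0.0376), and with the spread shared over all 12 arrays 2 members were, psbE among them (adjusted p = 0.0349). These genes also held 3 of the 5 widest ranges within a genotype among genes brighter than the median. atpB had levels of 11.27, 12.31 and 12.82 in wild type and 12.26, 12.86 and 10.48 in amiR-SNF4, and atpE and psaB also read lowest of the 6 in amiR-SNF4 replicate 3. The other 2 wide genes were PAP85, a vicilin-like seed storage protein gene, with levels of 10.57, 9.30 and 10.78 in wild type and 11.04, 8.35 and 10.52 in amiR-SNF4, and AT3G05730, with levels of 8.48, 8.89 and 7.71 in wild type and 7.29, 9.51 and 9.48 in amiR-SNF4. In PAP85 replicate 2 was the lowest array of each genotype. Differences in these 5 genes could not be resolved with 3 arrays a side, since the standard error of each was above 0.5.

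Sugar transporters and enzymes of carbon use changed in part. Of 19 SWEET and tonoplast sugar transporters, 5 fell and 1 rose (26.3% and 5.26%, median -0.33). Besides SWEET11, SWEET3 had levels of 8.61, 8.20 and 8.14 in wild type and 6.13, 6.01 and 5.65 in amiR-SNF4 and fell 5.23-fold, and SWEET16, a carrier of the vacuole membrane, had levels of 9.11, 8.76 and 8.46 in wild type and 6.47, 6.59 and 6.93 in amiR-SNF4 and fell 4.34-fold. SWEET1 (-0.97) and TMT2 (-0.85) made up the 5 falls. SWEET1 lost its call without wild-type replicate 2, and TMT2 without wild-type replicate 3 or amiR-SNF4 replicate 2. Without wild-type replicate 3 and amiR-SNF4 replicate 1, 3 falls were called. The single rise, SWEET14 (0.84), was lost when wild-type replicate 2, wild-type replicate 3, amiR-SNF4 replicate 2 or amiR-SNF4 replicate 3 was left out, and without normalization, with control scaling and with the replicate block. In starch metabolism SBE2.2, a branching enzyme of starch synthesis, had levels of 7.80, 8.32 and 8.33 in wild type and 6.71, 6.56 and 6.66 in amiR-SNF4 and fell 2.84-fold. AMY1, an alpha-amylase, had levels of 5.02, 5.22 and 5.19 in wild type and 6.47, 6.02 and 6.04 in amiR-SNF4 and rose 2.04-fold.

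Of 20 genes of glycolysis and the tricarboxylic acid cycle, 7 rose and 3 fell (35% and 15%, median 0.13). The rises included 4 genes of succinate dehydrogenase, the enzyme shared by the cycle and the respiratory chain. SDH2-1 had levels of 8.95, 8.85 and 8.90 in wild type and 10.46, 10.11 and 10.37 in amiR-SNF4 and rose 2.66-fold, and SDH1-1 had levels of 8.27, 8.39 and 8.11 in wild type and 9.54, 9.65 and 9.07 in amiR-SNF4 and rose 2.24-fold. SDH1-2 (0.82) and SDH2-2 (0.99) were also called higher, but SDH1-2 lost its call when any array except amiR-SNF4 replicate 1 was left out. Without normalization 4 of the rises were called and with control scaling 3. ACLB-1, a subunit of ATP-citrate lyase that supplies acetyl-CoA in the cytosol, fell by 0.92 ± 0.19. Of the 3 falls, 1 was left without wild-type replicate 2, without wild-type replicate 3 and amiR-SNF4 replicate 1, without normalization, with control scaling and with the replicate block.

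NDB2, an alternative NAD(P)H dehydrogenase on the outer face of the inner mitochondrial membrane, had levels of 6.59, 6.48 and 6.84 in wild type and 9.99, 9.33 and 9.37 in amiR-SNF4. It rose by 2.92 ± 0.22, 7.59-fold (adjusted p = 8.27e-05), with a gap of more than 2 between the genotypes. Of 13 genes of amino acid breakdown 5 fell and 1 rose (38.5% and 7.69%, median -0.04). The median was -0.22 without normalization, -0.30 with median scaling and -0.27 with control scaling. The falls included IVD, isovaleryl-CoA dehydrogenase, with levels of 10.83, 10.80 and 11.07 in wild type and 9.65, 9.44 and 9.12 in amiR-SNF4 and a fall of 1.5 ± 0.19, and MCCB, of the next step of leucine breakdown, with levels of 10.48, 10.79 and 11.10 in wild type and 9.80, 9.55 and 9.32 in amiR-SNF4 and a fall of 1.23 ± 0.21. Leaving out wild-type replicate 2 or wild-type replicate 3 left 3 falls, as did no normalization and control scaling. The rise, of ETFALPHA (0.59), a flavoprotein that takes up electrons from this breakdown, was lost without wild-type replicate 1, wild-type replicate 2 or amiR-SNF4 replicate 3, without normalization, with control scaling and with the replicate block. COR47, a dehydrin that accumulates in cold and drought, had levels of 12.14, 11.86 and 11.95 in wild type and 9.24, 9.10 and 9.43 in amiR-SNF4 and fell 6.62-fold.

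Defence genes moved differently from family to family. Of 12 immune receptor and salicylate genes, 8 rose and 1 fell (66.7% and 8.33%, median 1.31). SAG101, a lipase-like partner of the immune regulator EDS1, had levels of 6.13, 5.93 and 5.79 in wild type and 9.81, 9.62 and 9.53 in amiR-SNF4. Its lowest amiR-SNF4 array stood more than 3 above its highest wild-type array, and it rose 12.99-fold (adjusted p = 1.17e-05). GRX480, a glutaredoxin that binds TGA factors in salicylate signalling, had levels of 6.37, 6.20 and 6.39 in wild type and 8.65, 9.11 and 9.23 in amiR-SNF4 and rose 6.39-fold. UGT74F1, which glucosylates salicylate, had levels of 4.46, 4.23 and 4.92 in wild type and 6.54, 7.11 and 6.75 in amiR-SNF4 and rose by 2.27 ± 0.23 from near the floor. The rises also took in BIK1 (1.38), a kinase below immune receptors, while the receptor EFR (0.70) was not called. The one fall, PR-1-LIKE (-0.95), was lost when any array other than wild-type replicate 3 was left out.

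Of 8 calcium sensors, 7 of them calmodulin-like proteins and the other CaS of the chloroplast, 5 rose and none fell (62.5%, median 1.53). CML37 had levels of 4.09, 4.50 and 4.71 in wild type and 7.38, 7.86 and 8.05 in amiR-SNF4, from the floor in wild type. It rose by 3.33 ± 0.24, 10.0-fold (adjusted p = 6.64e-05). CML38 had levels of 5.77, 4.67 and 5.57 in wild type and 7.77, 7.89 and 8.43 in amiR-SNF4 and rose 6.47-fold, and CML43 had levels of 7.99, 7.91 and 7.28 in wild type and 9.34, 9.30 and 9.45 in amiR-SNF4 and rose 3.11-fold. CML41 (1.43) and CML23 (1.64) were the other rises, and CML23 lost its call without wild-type replicate 3 and amiR-SNF4 replicate 1. ATGLR1.2, a glutamate receptor-like channel, rose by 1.5 ± 0.20.

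Among 7 WRKY factors 2 rose (28.6%). WRKY6, known in senescence and defence, had levels of 6.76, 6.17 and 6.69 in wild type and 9.76, 9.23 and 9.24 in amiR-SNF4 and rose 7.30-fold, and WRKY20 rose by 0.83 ± 0.17. In the list of defensins, thionins, osmotin and chitinases, 4 of 18 rose and 1 fell (22.2% and 5.56%), with a median of -0.04. The defensin PDF1.4 had levels of 6.68, 6.41 and 6.0 in wild type and 8.46, 9.56 and 9.67 in amiR-SNF4 and rose 7.29-fold. CHI, listed here as a chitinase by its symbol alone, had levels of 8.26, 7.68 and 7.65 in wild type and 10.24, 10.16 and 10.40 in amiR-SNF4 and rose 5.31-fold. The osmotin-like OSM34, bright already in wild type, had levels of 11.35, 10.78 and 10.52 in wild type and 12.62, 12.36 and 12.86 in amiR-SNF4 and rose 3.31-fold. The single fall of this list was lost when wild-type replicate 1, wild-type replicate 2, amiR-SNF4 replicate 1 or amiR-SNF4 replicate 3 was left out. All 5 jacalin-related and similar lectins had effects below 0 (median -0.33), and JAL33 (-0.93) alone was called, a call lost without normalization, with control scaling and without wild-type replicate 1, amiR-SNF4 replicate 2 or amiR-SNF4 replicate 3.

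In phenylpropanoid synthesis CCR2, a cinnamoyl-CoA reductase that opens the lignin branch, had levels of 5.89, 5.73 and 4.38 in wild type and 8.81, 8.60 and 8.67 in amiR-SNF4. It rose by 3.36 ± 0.37, 10.2-fold (adjusted p = 0.000499), although wild-type replicate 3 was more than 1 below its partners. CHIL (1.28), a chalcone isomerase-like protein, was the other of the 2 rises among 12 genes (16.7%), and with control scaling 1 of the rises was called. Class III peroxidases, which act on phenolics in the wall, split by member. PRX52 had levels of 4.92, 4.77 and 5.06 in wild type and 9.32, 8.84 and 8.85 in amiR-SNF4 and rose 17.01-fold, Prx37 had levels of 6.54, 6.33 and 6.54 in wild type and 9.50, 9.14 and 9.30 in amiR-SNF4 and rose 7.18-fold, and PRXR1 had levels of 11.91, 11.74 and 12.01 in wild type and 9.44, 9.54 and 9.39 in amiR-SNF4 and fell 5.39-fold. For all 3 the genotypes were more than 2 apart.

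Detoxification families held large changes in both directions. Of 51 UDP-glycosyltransferases, which add sugars to small molecules, 16 rose and 7 fell (31.4% and 13.7%, median 0.22). UGT87A2 had levels of 8.50, 8.12 and 8.27 in wild type and 11.30, 11.29 and 11.07 in amiR-SNF4 and rose 7.57-fold. The adjacent genes UGT76E11 and UGT76E12 rose 5.37-fold and 5.79-fold. The second of these read 4.73, 4.54 and 4.57 in wild type and 7.14, 7.21 and 7.10 in amiR-SNF4, so that both genotypes were even within 0.2. UGT71C2 fell by 1.44 ± 0.19. The 7 falls became 4 without normalization, with control scaling and without wild-type replicate 3, amiR-SNF4 replicate 2 or amiR-SNF4 replicate 3, and 3 without wild-type replicate 3 and amiR-SNF4 replicate 1.

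Of 14 glutathione S-transferases, which join glutathione to reactive compounds, 4 rose and 2 fell (28.6% and 14.3%). The neighbours GSTU25 and GSTU26 went opposite ways. GSTU25 had levels of 6.75, 6.99 and 6.31 in wild type and 9.88, 9.66 and 10.40 in amiR-SNF4 and rose by 3.30 ± 0.25, whereas GSTU26 had levels of 8.22, 7.81 and 7.69 in wild type and 5.68, 6.07 and 5.72 in amiR-SNF4 and fell by 2.09 ± 0.20. How far probe sets of this family read RNA of near-identical copies is not known from these data. GSTU22 had levels of 9.81, 9.49 and 9.44 in wild type and 11.77, 12.40 and 12.40 in amiR-SNF4 and rose 6.10-fold. Of the 2 falls 1 was left without wild-type replicate 1 or wild-type replicate 2, without normalization and with control scaling.

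Of 22 beta-glucosidases, which release glucose from stored conjugates, 6 rose and none fell (27.3%, median 0.34). BGLU25 had levels of 8.10, 7.78 and 8.17 in wild type and 11.34, 10.98 and 10.99 in amiR-SNF4 and rose 8.51-fold (adjusted p = 3.59e-05). BGLU28 had levels of 5.18, 5.16 and 5.33 in wild type and 8.04, 7.43 and 7.64 in amiR-SNF4 and rose 5.57-fold, and its neighbour BGLU15 rose 3.37-fold. Of 11 genes that clear reactive carbonyls or repair oxidised methionine, 5 fell and 1 rose (45.5% and 9.09%, median -0.54). Without normalization or with control scaling 1 of these falls was called, and without wild-type replicate 2, wild-type replicate 3 or amiR-SNF4 replicate 3 there were 3. AER, which reduces reactive alkenals, was the one that rose. It had levels of 7.46, 7.49 and 7.14 in wild type and 9.47, 9.88 and 9.96 in amiR-SNF4 and rose 5.32-fold. MSRB5, a repair enzyme of oxidised methionine, fell by 1.95 ± 0.35, with amiR-SNF4 replicate 3 and wild-type replicate 3 close together in levels of 8.73, 8.64 and 7.70 in wild type and 6.05, 6.13 and 7.04 in amiR-SNF4. Among 17 thioredoxins, glutaredoxins and related genes 3 rose and 2 fell (17.6% and 11.8%). Of these GR1, a glutathione reductase, had levels of 9.43, 9.46 and 9.90 in wild type and 11.77, 11.41 and 11.04 in amiR-SNF4 and rose 3.50-fold.

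Many chaperone genes of the ER and the cytosol rose. Of 15 genes of the unfolded protein response and quality control in the endoplasmic reticulum (ER), 6 rose and none fell (40%, median 0.54). ATERDJ3B, an ER co-chaperone, had levels of 7.80, 7.85 and 8.14 in wild type and 10.93, 10.61 and 10.53 in amiR-SNF4 and rose by 2.76 ± 0.18. CRT1b, a calreticulin, had levels of 8.25, 8.37 and 8.84 in wild type and 10.83, 10.30 and 10.20 in amiR-SNF4 and rose 3.88-fold. BZIP60, the transcription factor that the ER stress sensor IRE1 activates by splicing, had levels of 8.69, 8.85 and 8.42 in wild type and 10.39, 10.49 and 10.52 in amiR-SNF4 and rose 3.51-fold. The other ER stress factors BZIP28 (0.65) and BZIP17 (0.28) were not called.

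Of 13 cytosolic chaperones and co-chaperones, 8 rose and none fell (61.5%, median 0.88). Fes1A, a nucleotide exchange factor of cytosolic Hsp70, had levels of 7.0, 6.89 and 6.79 in wild type and 9.55, 9.89 and 10.13 in amiR-SNF4. It rose by 2.96 ± 0.19, 7.80-fold (adjusted p = 4.33e-05), while Fes1B (-0.22) and Fes1C (-0.62) were not called. Hop3, which links Hsp70 with Hsp90, had levels of 5.98, 6.16 and 6.31 in wild type and 8.41, 8.08 and 8.44 in amiR-SNF4 and rose 4.46-fold, and Hsp70-2 had levels of 7.05, 7.13 and 7.07 in wild type and 9.45, 8.84 and 9.01 in amiR-SNF4 and rose 4.04-fold. With control scaling 5 of the 8 rises were called. None of 6 plastid chaperonin and Clp genes was called (median 0.16), the smallest p being that of CLPP4 (0.52, adjusted p = 0.118).

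**Figure D4:**
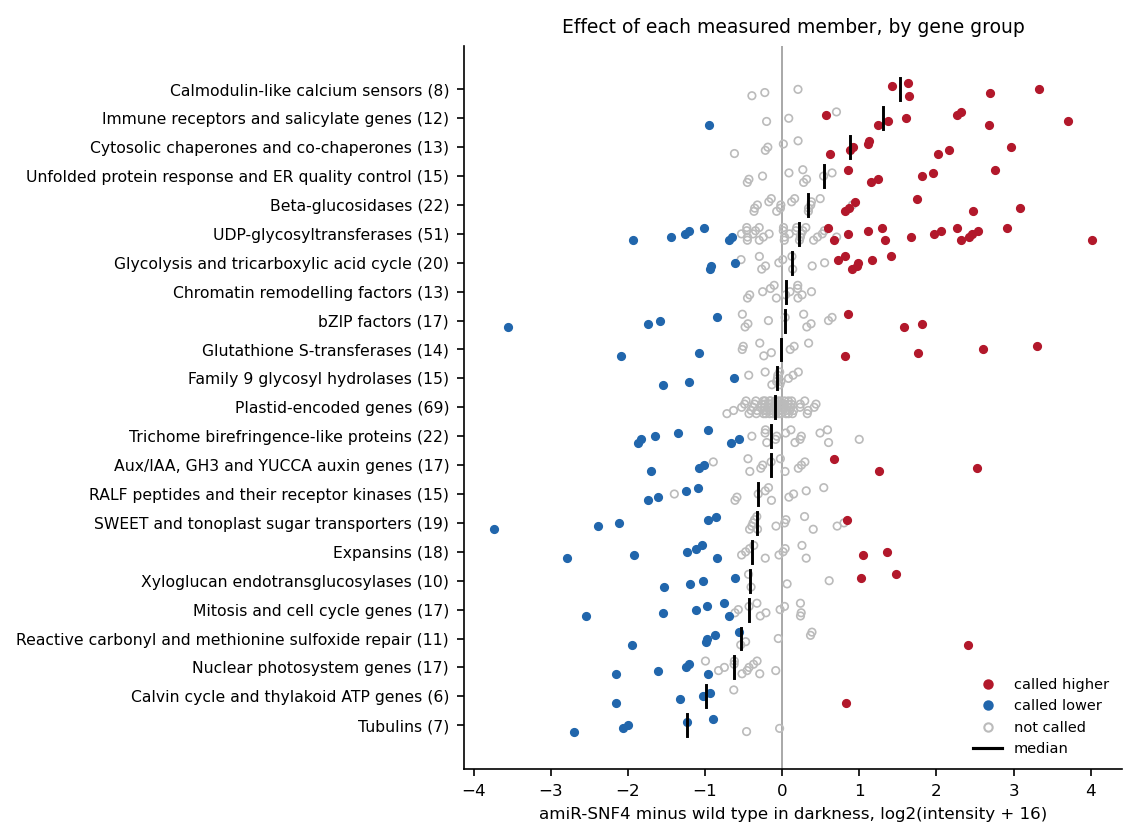
Effect of silencing (amiR-SNF4 minus wild type in darkness, log2) for each measured member of 23 gene groups, with the number of members in parentheses. Filled red points were called higher, filled blue points called lower, open points were not called, and black bars are medians; calcium, immune and chaperone groups lie to the right and tubulins and photosynthesis groups to the left.

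Genes of protein turnover moved as single members. Of 9 U-box ubiquitin ligases 4 rose and none fell (44.4%). They included the trio PUB22, PUB23 and PUB24, known to dampen immune signalling, which rose by 1.25 ± 0.19, 1.26 ± 0.18 and 1.19 ± 0.17. PUB22 had levels of 6.99, 7.22 and 6.76 in wild type and 8.19, 8.08 and 8.45 in amiR-SNF4. ATG8H, a ubiquitin-like protein of autophagosomes, had levels of 7.90, 7.84 and 6.99 in wild type and 9.89, 10.73 and 10.45 in amiR-SNF4 and rose 6.87-fold. Of the other 9 autophagy genes 1 was called higher and 1 lower, and both calls were lost without normalization and with control scaling. The lower one was lost also when any array but wild-type replicate 3 was left out. ALPHA-VPE, a protease of the vacuole, had levels of 5.58, 5.92 and 5.98 in wild type and 7.86, 8.04 and 8.13 in amiR-SNF4 and rose 4.54-fold.

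Subtilisin-like proteases rose and fell. SBT3.5 had levels of 5.70, 5.48 and 6.10 in wild type and 9.72, 8.91 and 9.42 in amiR-SNF4 and rose 12.03-fold, and its near neighbour SBT3.3, known in immune priming, had levels of 4.25, 4.29 and 4.44 in wild type and 6.60, 6.41 and 6.18 in amiR-SNF4 and rose 4.19-fold. ATSBT5.2 had levels of 9.18, 9.20 and 9.25 in wild type and 6.53, 6.23 and 5.53 in amiR-SNF4 and fell 8.64-fold. Of 29 serine carboxypeptidase-like proteins 4 rose and 6 fell (13.8% and 20.7%). The rises included scpl16 (4.83-fold) and scpl46 (2.85-fold), and the falls SCPL34 (3.12-fold). Without normalization or with control scaling 2 of these 6 falls were called.

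Transcription factor families differed in their share of calls. Of 17 bZIP factors 3 rose and 4 fell (17.6% and 23.5%), with 5 rises when the added constant was 64. BZIP53, known as a partner in seed maturation and in low-energy responses, had levels of 9.46, 9.67 and 9.78 in wild type and 11.20, 11.23 and 11.22 in amiR-SNF4. It rose by 1.58 ± 0.15 (adjusted p = 0.000260), and its amiR-SNF4 arrays were nearly equal. Besides BZIP61, bZIP58 fell by 1.73 ± 0.20 and bZIP48 by 1.59 ± 0.25. Of 21 bHLH factors 3 fell (14.3%), among them UPB1, which sets the balance of growth and differentiation in the root, with levels of 8.22, 7.67 and 7.29 in wild type and 5.75, 5.93 and 6.52 in amiR-SNF4 and a fall of 1.66 ± 0.29. Of 40 MADS-box AGAMOUS-like genes 1 was called lower (2.50%), a call lost without normalization and with control scaling.

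Transporters and signalling proteins of smaller families also gave strong single changes. CHX20, a cation and proton exchanger of guard cells, had levels of 5.24, 4.76 and 4.93 in wild type and 8.12, 7.87 and 7.69 in amiR-SNF4 and rose 7.56-fold (adjusted p = 4.88e-05). GTR1, which imports glucosinolates, had levels of 6.04, 6.14 and 6.41 in wild type and 7.92, 7.36 and 7.38 in amiR-SNF4 and rose 2.56-fold. Of 15 tetraspanins, proteins of membrane domains, 3 fell and 2 rose (20% and 13.3%). TET6 had levels of 7.01, 6.62 and 6.70 in wild type and 4.62, 5.13 and 4.33 in amiR-SNF4 and fell 4.24-fold, and TET7 had levels of 8.68, 8.62 and 8.62 in wild type and 6.56, 7.08 and 6.86 in amiR-SNF4 and fell 3.50-fold. Of the rises 1 or none was left without normalization, with control scaling or without any of wild-type replicate 2, wild-type replicate 3 and amiR-SNF4 replicate 3.

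Of 8 markers of cell types 2 were called, both lower (25%). Of 4 stomatal genes STOMAGEN, a mesophyll peptide that raises stomatal density, had levels of 7.40, 7.78 and 7.44 in wild type and 5.11, 6.19 and 5.94 in amiR-SNF4 and fell by 1.79 ± 0.28. The stomatal lineage factors SPCH (0.11), MUTE (-0.04) and FMA (-0.32) were not called. Of the root hair expansins EXPA18 (-1.12) was called lower, though not without normalization or without wild-type replicate 3 and amiR-SNF4 replicate 1, and EXPA7 (-0.47) was not called. The part of cell make-up in the results was not tested. Neither PHV (-0.17) nor CLV3 (0.06), of meristem and vascular patterning, was called. The median level of the 4 stomatal genes was 4.89, 5.22 and 5.05 in wild type and 4.70, 4.97 and 4.93 in amiR-SNF4.

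Smaller families of membrane traffic, ubiquitin and P450 genes held single changes. VPS2.1, of the ESCRT machinery that sorts membrane proteins to the vacuole, had levels of 8.79, 8.61 and 8.36 in wild type and 9.93, 9.48 and 9.98 in amiR-SNF4 and rose 2.32-fold. It was 1 of 4 rises among 12 ESCRT genes (33.3%), and 1 was left without normalization or with control scaling. The 1 fall of the list, VPS2.2 (-0.67), was lost when any array but amiR-SNF4 replicate 2 was left out. UBC22, a ubiquitin-conjugating enzyme, had levels of 10.01, 9.99 and 10.17 in wild type and 8.91, 8.94 and 8.96 in amiR-SNF4 and fell by 1.12 ± 0.14. Of the 13 such enzymes 4 fell and 2 rose (30.8% and 15.4%). Leaving out wild-type replicate 2 left 1 fall, as did no normalization and control scaling. No rise was left in those cases, nor without wild-type replicate 3, amiR-SNF4 replicate 2 or amiR-SNF4 replicate 3, and 1 without wild-type replicate 1. CYP71B6, a cytochrome P450, rose by 1.35 ± 0.20 and CYP71B34 fell by 1.81 ± 0.18. Of the 19 measured CYP71B genes 4 rose and 2 fell (21.1% and 10.5%), with 2 rises left without wild-type replicate 2 or amiR-SNF4 replicate 3. One of the 2 falls, CYP71B37 (-0.73), was lost without normalization, with control scaling and without any array but wild-type replicate 3.

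Other groups of basic cell function gave no call. Of 13 chromatin remodelling factors none was called, the smallest p being that of INO80 (-0.45, adjusted p = 0.0994). Of 7 exocyst genes, which tether vesicles at the plasma membrane, none was called (SEC10 -0.42, adjusted p = 0.235). Within each list these zeros came from limma, and at an unadjusted p under 0.05 INO80, CLPP4 and psbE would pass. Of all genes, 4461 passed that unadjusted mark.

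Close to the threshold, AT3G56680 (-0.76, adjusted p = 0.0498) and SEC (0.62) were just called and lost the call when single arrays were left out, and AT2G37220 (-0.96, adjusted p = 0.05004) and AT5G38840 (0.53) just missed. Sizes near the threshold ran from 0.51 to 0.96 for the 6 genes on either side.

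Genes that lie next to each other could be compared for 5845 adjacent pairs with both members measured. Both were called higher in 113 pairs (1.93%), both lower in 128 (2.19%) and in opposite directions in 148 (2.53%). Of all genes 10.6% were called higher and 11.5% lower. The shares that unrelated neighbours would give were not computed, so no pattern is read from these pairs or from the runs below. There were 9 runs of 3 adjacent genes that all rose and 4 runs of 3 that all fell. The run AT5G52670, AT5G52680 and AT5G52690 rose by 2.81 to 3.87. The run SBT3.5, AT1G32950 and SBT3.3 rose by 1.47 to 3.59, and that around AER (AT5G16960, AER and AT5G16980) by 1.38 to 2.41. Neighbours of this kind are often copies of one gene, and how far their probe sets read each other's RNA is not known from these data.

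The effect in darkness was set against the effect in light, measured on the other 6 arrays in a fit of all 12. The darkness and light comparisons share no arrays, but all 12 were normalized together. The size of the effect over all genes had a median of 0.31 in darkness and 0.23 in light. Of the 2961 genes called in darkness, 2635 (89.0%) had the same sign in light. The share of all genes with the same sign was not computed, so the 89.0% has no baseline. Over all genes the effects correlated with Pearson's r of 0.72, a description across genes, which are not independent replicates. The difference between the effects was itself called for 1066 genes (7.98%), whether or not they were called in darkness. In 823 of these the effect was larger in size in darkness and in 243 in light. Of the 1066 genes, 836 were also called in darkness.

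**Figure D5:**
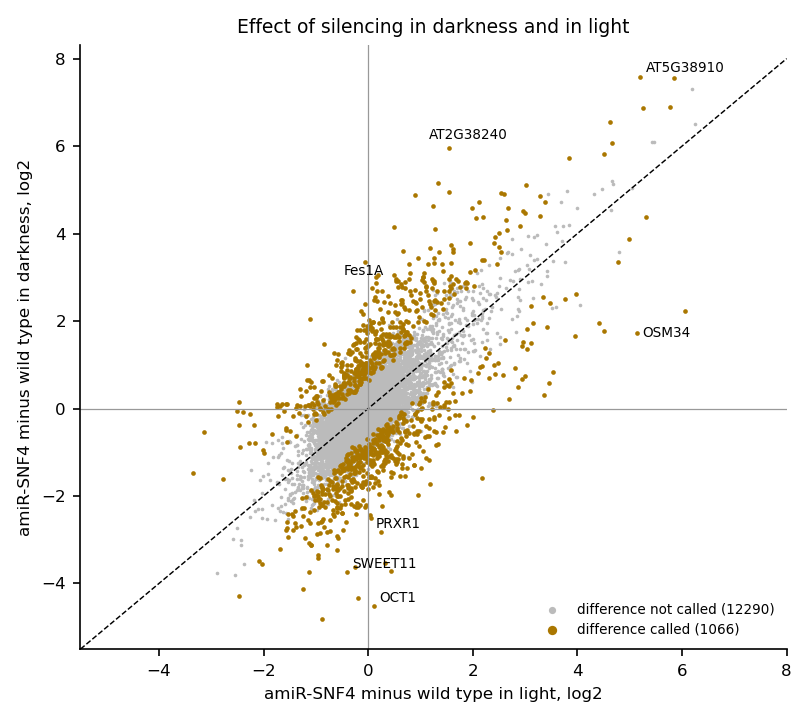
Effect of silencing in darkness (vertical) against light (horizontal), both log2, for all 13356 genes. Gold points are the 1066 genes whose effects differed between darkness and light, grey points the other 12290, and the dashed line marks equal effects; 823 gold points lie further from 0 in darkness and 243 in light.

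Several of the strongest changes in darkness were small in light. OCT1 had a light effect of 0.12 ± 0.13 and a difference of -4.64 ± 0.18 (adjusted p = 4.43e-08). SWEET11 had a light effect of -0.41 ± 0.18 (difference adjusted p = 1.24e-05), ATPMEPCRD of -0.87 ± 0.17 (2.17e-06) and PRXR1 of 0.04 ± 0.13 (1.13e-05). Among rises, Fes1A had a light effect of 0.53 ± 0.18 (8.99e-05), Hop3 of -0.09 ± 0.15 (5.20e-05), BGLU28 of 0.11 ± 0.17 (5.90e-05), CML38 of -0.29 ± 0.27 (0.000442) and CHX20 of 0.54 ± 0.16 (4.96e-05). For AT2G38240 the light effect was 1.55 ± 0.24, a difference of 4.40 ± 0.34 (1.20e-05).

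Some genes moved more in light or turned. OSM34 rose further in light, by 5.13 ± 0.25 (difference adjusted p = 8.33e-05), and so did EXPA4, by 3.04 ± 0.14 (0.000270), and CHI, by 3.48 ± 0.19 (0.0314). XTH32 had a light effect of -0.85 ± 0.17, opposite in sign to that in darkness (9.44e-05), and ROXY2, a glutaredoxin of anther development that fell by 1.55 ± 0.20 in darkness, had a light effect of 0.70 ± 0.18 (0.000199). Other effects were of similar size: AT4G33720 rose by 5.05 ± 0.21 in darkness and had a light effect of 5.04 ± 0.18, with a difference of 0.01 ± 0.26. COR47 had a light effect of -2.50 ± 0.13 and a difference of -0.22 ± 0.18, BZIP53 of 1.53 ± 0.12 and 0.05 ± 0.18, and UGT87A2 of 2.77 ± 0.15 and 0.15 ± 0.22.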

How the data were processed

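RNA of whole seedlings was measured on Affymetrix ATH1 arrays. The values deposited by the authors are linear intensities, 1 per probe set and array, made with GCOS per the submitters' processing notes, which give no version; whether they were scaled is not given in the sources used here. All columns were used. Of 22810 probe sets 64 controls were set aside, and the other 22746 were quantile-normalized over the 12 arrays before log2(intensity + 16) was taken. Probe sets naming 1 gene (13513) were kept, those naming several (503) or none here (8730, 38.4%) were not. For 146 genes with several probe sets the brightest was used, which left 13356 genes, 1535 with a symbol and 11821 with a locus ID alone.

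The 6 dark arrays were fitted with limma 3.58.1 in R 4.3.3 (lmFit, eBayes), with Benjamini-Hochberg adjustment over 13356 genes and calls under 0.05. The difference from light came from a fit of all 12 arrays with 4 groups. The code was tested on simulated arrays. Each array's number of probe sets says nothing of precision, which the 3 arrays per group limit.

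The comparison, gene lists and members were chosen with earlier results of these data known. The lists were redrawn from gene symbols after the annotation was seen, because the gene table holds no product names, so each covers only the members with a symbol. Genes were named by a rule: measured SnRK1 subunits; the 12 largest rises and falls among called, non-overlapping genes above the 25th percentile in both genotypes; up to 3 called members a list in each direction with the smallest p, or the smallest p where none was called; 6 genes on each side of the threshold; and the 5 widest ranges. Other genes named were chosen after their values were seen. Alternatives were other scalings, constants, a filter on dim genes, other spreads and weights, a replicate block, the mean of a gene's probe sets and leaving out arrays. Sequences were not used here.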

Additional observations from a re-analysis of the deposited data

Results flagged for a closer look

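Of the genes named in the results, 73 had effects of silencing that differed between darkness and light by the limma test of the difference (adjusted p under 0.05). Values below are the darkness effect minus the light effect on the log2 scale, each from 3 arrays per group. For 36 of these genes the effect in darkness was above 0 and more positive than in light, for 4 above 0 and less positive, for 32 below 0 and more negative, and for 1 below 0 and less negative. BUB3.1 and sks15 are included although they were not called in darkness. Named genes were picked largely by their effect in darkness, which by itself favours larger effects there in these counts. Over all 1066 genes with a called difference, the effect was larger in size in darkness in 823 and in light in 243.

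In the wall and growth genes the difference was -3.94 for ATPMEPCRD, -2.07 for EXPA8, -1.31 for EXLA2, 0.84 for EXPA9, -1.68 for EXPA4, 2.33 for XTH32, 1.09 for CSLD2, -1.84 for TBL37 and 1.20 for sks15. In microtubule and cell division genes the difference was -1.31 for TUB5, -1.04 for TUB6, -1.40 for ATMAP65-6, -1.05 for FBL17, 0.90 for BUB3.1, -0.90 for IQD19 and -0.83 for TRM26. In hormone genes and transcription factors the difference was -1.82 for IAA29, -0.98 for GID1A, -1.68 for bZIP58, -1.72 for bZIP48 and 1.01 for WRKY6. In plastid and carbon genes the difference was -1.56 for PRK, 0.91 for SAPX, -3.33 for SWEET11, -1.90 for SWEET3, -1.03 for SWEET1 and 1.21 for NDB2. In defence and calcium genes the difference was 1.19 for SAG101, 2.03 for UGT74F1, 2.07 for CML37, 2.98 for CML38, -1.51 for CML41, 1.11 for ATGLR1.2, -3.40 for OSM34, -1.07 for CHI, 1.66 for CHIL, 1.43 for PRX52 and -2.47 for PRXR1.

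In detoxification and redox genes the difference was 1.53 for UGT76E11, 0.9977 for UGT76E12, 2.15 for GSTU25, 2.03 for BGLU25, 2.37 for BGLU28, 1.01 for BGLU15, 1.99 for AER, -1.45 for CYP71B34 and -2.25 for ROXY2. In genes of protein folding and turnover the difference was 0.88 for ATERDJ3B, 2.43 for Fes1A, 2.25 for Hop3, 1.60 for PUB22, 0.95 for PUB23, -0.89 for UBC22, 2.21 for ATG8H, 1.62 for ALPHA-VPE, 2.24 for SBT3.5 and -2.31 for ATSBT5.2. In transporters and membrane proteins the difference was 2.38 for CHX20, -4.64 for OCT1 and -1.64 for TET6. In genes known here by locus alone the difference was 2.39 for AT5G38910, 1.94 for AT5G17760, -2.62 for AT3G62040, 1.90 for AT3G47540, -1.81 for AT4G39675, -1.40 for AT4G30450, -2.45 for AT4G23870, -1.51 for AT3G05900, -4.15 for AT1G12080, -3.37 for AT2G45180, 4.40 for AT2G38240, 1.32 for AT2G30660 and 1.13 for AT2G30670.

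Probe sets outside the 13356 genes carried signal as well. Of 8730 probe sets with no gene name here 2880 were called in darkness (1357 higher and 1523 lower, 33.0%), and of 503 that named several genes 118 were called (68 higher and 50 lower, 23.46%). Among the control probe sets, those for the glycolytic enzyme GAPDH were higher in amiR-SNF4. Their effects were 1.03 for the 3′, 1.31 for the 5′ and 1.37 for the middle probe set of one control set, and 1.35 for the 3′ and 1.42 for the 5′ probe set of the other. In all 5 of them every amiR-SNF4 array lay above every wild-type array. Smaller rises without overlap were also seen in ubiquitin controls. They were 0.41 for the 3′ and 0.59 for the 5′ probe set of the first control set, and 0.27 and 0.37 of the other. The 3′ (0.26) and middle (0.25) actin probe sets of the other set rose likewise. All these effects were taken after normalization. In the intensities as deposited, the amiR-SNF4 mean over the wild-type mean was 1.03 and 1.06 for these actin probe sets. It was 1.11 to 1.34 for the ubiquitin probe sets named and 1.87 to 2.64 for those of GAPDH. Of all genes, 37.0% had no overlap either. The remaining ubiquitin and actin control probe sets overlapped between the genotypes.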

How the results depend on the processing

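Over the 19 alternatives run, no effect of a named gene that was called in the reported setting turned its sign. The signs of named genes not called there were not compared. The number of genes called in darkness was 2961 in the reported setting. It was 1684 without normalization between arrays (632 lower) and 1641 with scaling to the hybridization controls (647 lower). Of these calls 1659 and 1611 were also made, in the same direction, in the reported setting. The cause of the loss of falls under these scalings was not tested. Leaving out each array in turn gave 2014 to 2609 calls, with 1038 to 1288 higher and 976 to 1321 lower; the lowest counts came without wild-type replicate 2. The other alternatives gave between 2168 and 4113 calls, the last with the spread shared over all 12 arrays. Chosen after seeing the data, leaving out wild-type replicate 3 and amiR-SNF4 replicate 1 together gave 2390 calls, 2172 of them made in the same direction in the reported setting. Of the 202 genes given with values or names in the results, 169 were called; 137 of these kept the call under every alternative that gave them a value and 32 lost it under at least 1. Of the 33 not called, 21 gained a call under none. Among families with no call in one direction, the trichome birefringence-like proteins gained up to 3 rises and the plastid-encoded genes up to 2 falls under at least 1 alternative, and the RALF, AGAMOUS-like, ER quality control, cytosolic chaperone, plastid chaperonin, U-box, tetrapyrrole and chromatin groups 1 call each. Leaving dim genes out removed members from the test and so lowered some counts. The difference between darkness and light was fitted in 1 setting.

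The deviations of same-numbered replicates from their group means had correlations of -0.20, 0.19 and -0.33 over genes. With 3 arrays per genotype such values cannot decide whether the numbers pair the samples, and the labels do not say what the numbers mark. With the replicate block 2253 genes were called, 2213 of them also without it and in the same direction. No detection calls were used here, so what is limited for dim genes is known only through the floor that the added constant sets: an added constant of 1 gave 2168 calls and one of 64 gave 3005.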
